A study of Homo sapiens with 12 samples.

Results

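The kinesin superfamily was followed in K562 cells and in a pair of lines made from them. Members were the protein-coding genes whose symbol is KIF with a number and an optional letter, or KIFC with a number. This rule took 42 of the 60671 genes in the count table, and 36 of the 42 had enough counts to be tested among 18626 genes. By known role 14 members were placed with the mitotic kinesins (13 tested), 17 with the transport kinesins (16 tested), 6 with the kinesins of cilia and centrioles (4 tested) and 5 with none of these (3 tested). K562 is a human chronic myelogenous leukemia line. K/VP.5 is a clonal line with acquired resistance to etoposide, a drug that traps DNA topoisomerase IIα on DNA. K562/SSedit-2 is a clone of K562 in which Cas9 protein, a guide RNA and a repair template were used to disable the 5′ splice site (5′ SS) at the border of exon 19 and intron 19 of TOP2A. All cells grew in the same medium and were taken in mid-log phase. RNA of 4 replicates of each line was sequenced, and where values of all lines follow each other they stand in the order K562, K/VP.5, K562/SSedit-2. Each derived line is a single clone, so what belongs to the clone and what belongs to the resistance or the edit cannot be told apart. The labels do not say whether replicates came from separate cultures, so p-values measure the spread between these samples only.

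Kinesins are motor proteins that use ATP to walk along microtubules or to take microtubules apart. Mitotic kinesins build and position the spindle, move chromosomes and complete cytokinesis, and their genes are switched on late in the cell cycle. Transport kinesins carry vesicles, organelles and proteins, mostly toward the cell periphery, and several are known chiefly from neurons. Other members work in the cilium, the antenna of the cell, or at its base. Many genes with late cell cycle expression share a promoter element known as the CHR (cell cycle genes homology region), commonly read as TTTGAA, near their start, often with CCAAT boxes upstream of it.

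Promoter windows of 300 bases (250 before to 50 after the start, RefSeq, GRCh38.p14) were matched for 34 of the 42 kinesins, 43 windows in all. They are shown first so that the motifs can be set beside the values of each member. TTTGAA and CCAAT were searched on both strands, where they read TTCAAA and ATTGG, and the motifs can overlap each other at an end base. The 15 mitotic windows belong to 14 genes and the 17 transport windows to 12 genes, so a gene can count more than once. The transport kinesins KIF5A, KIF13B, KIF21B, KIFC2 and KIFC3 had no window. TTTGAA was found in 10 of 15 mitotic windows (66.7%), 1 of 17 transport windows (5.88%) and in 12.4% of the windows of all protein-coding genes. CCAAT was found in 11 of 15 mitotic windows (73.3%), 5 of 17 transport windows (29.4%) and 34.7% of all windows. The windows of the mitotic KIF20A, KIF22, KIF2B and KIF2C hold no TTTGAA. The 6 windows printed here are those of KIF11 and KIF20B, the mitotic kinesins with the largest differences between lines, of KIF23 as a mitotic kinesin without a called difference from K562 in the fit of all samples, of KIF5B, the transport kinesin whose window holds TTTGAA, and of KIF1A and KIF26A, the kinesins that rose most in K562/SSedit-2 and in K/VP.5, respectively. Capitals mark TTTGAA and CCAAT on either strand.
KIF11, chr10:92592880-92593179, plus strand: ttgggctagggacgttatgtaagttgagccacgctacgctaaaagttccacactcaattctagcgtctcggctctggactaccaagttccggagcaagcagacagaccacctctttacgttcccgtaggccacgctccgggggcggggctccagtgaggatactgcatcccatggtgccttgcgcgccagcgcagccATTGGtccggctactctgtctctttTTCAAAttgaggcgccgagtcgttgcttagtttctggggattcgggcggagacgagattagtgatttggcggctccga
KIF20B, chr10:89701340-89701639, plus strand: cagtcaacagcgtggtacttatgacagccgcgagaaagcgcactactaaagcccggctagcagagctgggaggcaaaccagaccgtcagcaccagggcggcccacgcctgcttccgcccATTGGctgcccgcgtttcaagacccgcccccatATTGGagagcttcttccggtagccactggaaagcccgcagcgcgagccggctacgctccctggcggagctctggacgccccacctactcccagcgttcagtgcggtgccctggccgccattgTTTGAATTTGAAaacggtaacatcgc
KIF23, chr15:69414099-69414398, plus strand: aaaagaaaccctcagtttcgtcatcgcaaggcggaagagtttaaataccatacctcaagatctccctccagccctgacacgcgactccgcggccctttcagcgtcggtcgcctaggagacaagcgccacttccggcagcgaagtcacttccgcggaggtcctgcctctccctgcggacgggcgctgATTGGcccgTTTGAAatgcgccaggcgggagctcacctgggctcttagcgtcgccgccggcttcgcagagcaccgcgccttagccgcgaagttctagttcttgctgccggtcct
KIF5B, chr10:32056376-32056675, minus strand: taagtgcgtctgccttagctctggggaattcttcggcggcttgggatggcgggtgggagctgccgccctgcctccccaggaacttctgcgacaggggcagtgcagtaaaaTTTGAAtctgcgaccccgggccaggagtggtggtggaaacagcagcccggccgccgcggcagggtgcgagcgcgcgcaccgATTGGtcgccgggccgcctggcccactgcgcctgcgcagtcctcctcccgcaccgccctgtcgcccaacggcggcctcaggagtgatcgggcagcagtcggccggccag
KIF1A, chr2:240820170-240820469, minus strand: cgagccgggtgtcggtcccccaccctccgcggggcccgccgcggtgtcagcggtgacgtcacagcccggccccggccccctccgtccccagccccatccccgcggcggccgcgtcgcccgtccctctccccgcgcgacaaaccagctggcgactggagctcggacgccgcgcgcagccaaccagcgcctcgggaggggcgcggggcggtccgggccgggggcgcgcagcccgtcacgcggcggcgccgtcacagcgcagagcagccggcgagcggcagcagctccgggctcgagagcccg
KIF26A, chr14:104138337-104138636, plus strand: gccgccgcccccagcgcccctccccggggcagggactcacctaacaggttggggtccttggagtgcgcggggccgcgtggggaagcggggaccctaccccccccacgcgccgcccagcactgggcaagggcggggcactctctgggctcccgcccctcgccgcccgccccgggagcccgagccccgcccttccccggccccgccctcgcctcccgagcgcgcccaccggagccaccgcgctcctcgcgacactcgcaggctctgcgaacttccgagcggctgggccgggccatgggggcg
Of these, KIF11 holds TTTGAA 28 bases and CCAAT 53 bases before the start, and KIF20B holds a tandem of TTTGAA after the start. The KIF1A window, 1 of 3 listed for the gene, and the KIF26A window hold neither motif. The printed KIF1A window has 51 CpG dinucleotides and the other KIF1A windows have 20 and 10, while the KIF26A window has 37. The median was 30 in the transport windows, 29 in those of all kinesins and 21 in those of all protein-coding genes.

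Total counts per sample were 28981722 to 43648830. The 7 erythroid and K562 markers checked were tested in all lines and summed to 2610 to 4720 CPM (counts scaled to the same library size in every sample) in each sample, whereas the 7 neuronal markers summed to at most 1.47 CPM, with SNAP25 and STMN2 at 0 counts in every sample. The 6 markers of other cell types summed to 147 to 236 CPM. The highest of them made up most of that sum, at a mean of 176, 129 and 177 CPM in the 3 lines. Among the remaining markers, COL1A1 (2.59 CPM in K562 and 22.5 CPM in K/VP.5) and PECAM1 (24.8 and 0.286 CPM) differed between lines. The part of these markers in the kinesin results was not tested. TOP2A, the edited gene, stood at 402 ± 59.1 CPM (SD, n = 4) in K562 and 192 ± 16.0 CPM (SD, n = 4) in K562/SSedit-2. K562 replicate 1 stood apart from the other K562 replicates over the genes as a whole, several mitotic kinesins included. Chi-square per degree of freedom between its counts and those of another K562 replicate was 61.3 to 65.1, against 6.6 to 20.3 among the others. KIF18A was 39.7 CPM in K562 replicate 1 and 23.2 to 24.1 CPM in the other K562 replicates. The median deviation of the 13 tested mitotic kinesins from their K562 means was 0.13 (log2) in K562 replicate 1. For the counts of genes called against K562 at 10% FDR, the values without it are therefore given for each class and list.

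To ask which kinesins differ between lines, the lines were compared in pairs by edgeR's quasi-likelihood test, with genes called at a fold change of 2 and a 10% false discovery rate (FDR), or at 10% FDR alone. In K/VP.5 against K562, 5 kinesins were higher and 2 lower at the fold change of 2, or 7 of 36. Of all tested genes 15.6% were called there, 8.98% higher and 6.66% lower. At 10% FDR alone 13 were higher and 9 lower (52.3% of all tested genes, 26.2% higher and 26.1% lower). In K562/SSedit-2 against K562, 1 kinesin was higher and 0 lower at the fold change of 2 (2.06% of all genes, 0.805% higher and 1.26% lower), and 3 were higher and 1 lower at 10% FDR alone (12.6% of all genes, 4.86% higher and 7.79% lower). In K562/SSedit-2 against K/VP.5, 2 were higher and 3 lower at the fold change of 2 (15.8% of all genes, 6.2% higher and 9.62% lower), and 12 were higher and 11 lower at 10% FDR alone (54.0% of all genes, 26.2% higher and 27.8% lower). Replicates did not overlap for 17 kinesins between K/VP.5 and K562 (43.0% of all tested genes), for 5 between K562/SSedit-2 and K562 (13.2%) and for 19 between the derived lines (47.4%). Both comparisons with K562 use the same K562 samples. Without K562 replicate 1, 37 kinesins could be tested, of which 8 were higher and 4 lower in K562/SSedit-2 at 10% FDR alone, where 19.5% of all genes were called, and 13 were higher and 8 lower in K/VP.5 (52.4%), or 12 and 8 of the 36 tested with all samples. KIF26A, which entered through its level in K/VP.5, is among the members counted as higher there.

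**Figure D1:**
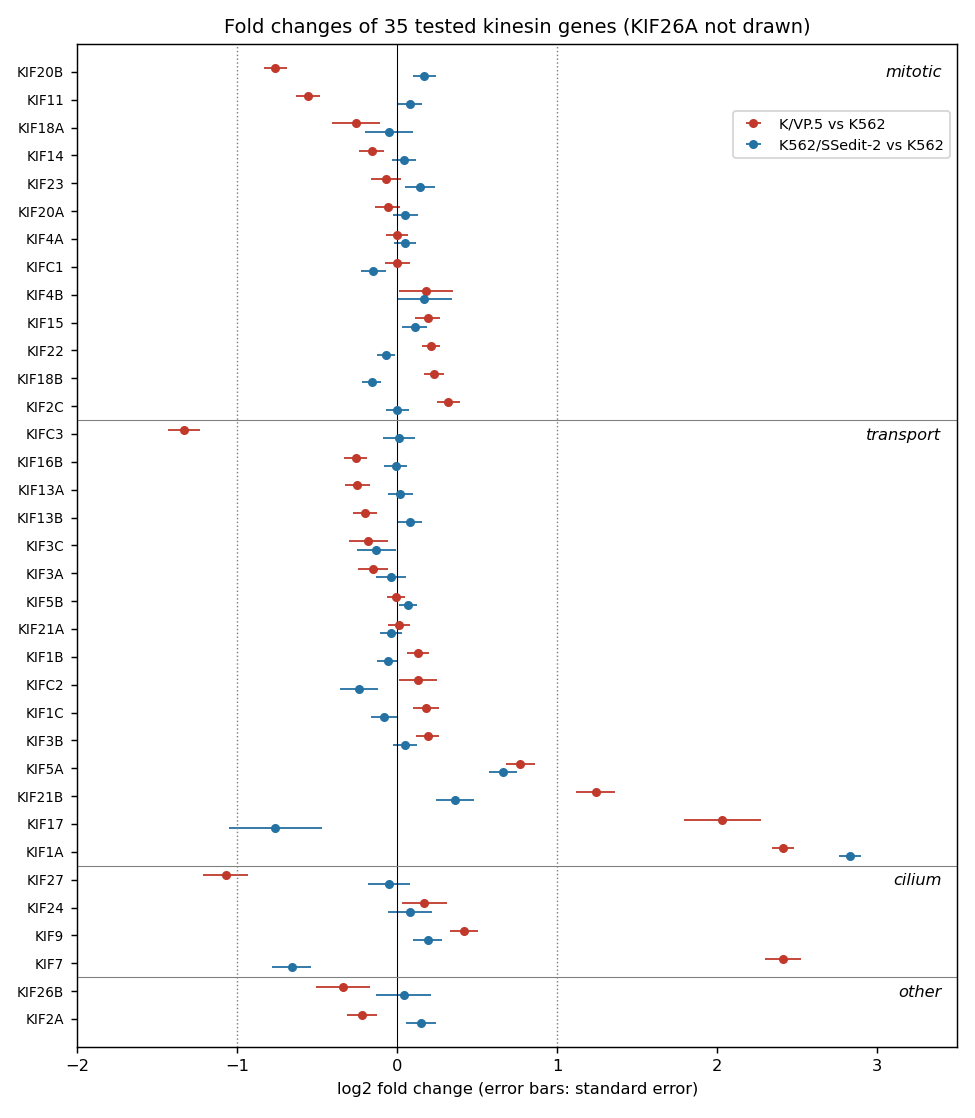
Log2 fold change (x axis, error bars are standard errors) of the tested kinesins by role, in K/VP.5 and K562/SSedit-2 against K562, with dotted lines at a fold change of 2. Mitotic kinesins stay between the dotted lines, KIF1A lies far to the right in both comparisons, and KIF7 lies at 2.41 in K/VP.5 but at -0.66 in K562/SSedit-2. KIF26A, nearly absent from K562, is not drawn.

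Among the transport kinesins, KIF1A rose most in each derived line. KIF1A (ENSG00000130294, chr2:240713761-240824293, minus strand of GRCh38) encodes a motor that carries synaptic and dense-core vesicles along axons. Its levels were 44.8, 49.4, 50.5 and 51.4 CPM in the K562 replicates, 247, 256, 260 and 278 CPM in K/VP.5, and 340, 329, 370 and 360 CPM in K562/SSedit-2. The 3 lines did not overlap at any replicate, with K562 lowest and K562/SSedit-2 highest. KIF1A rose 5.31-fold in K/VP.5 (log2 fold change 2.41, SE 0.068, adjusted p = 7.5e-14) and 7.13-fold in K562/SSedit-2 (log2 fold change 2.83, SE 0.069, adjusted p = 3.12e-13). K562/SSedit-2 itself exceeded K/VP.5 (by 0.43 on the log2 scale, SE 0.064, adjusted p = 3.68e-05). The 26 tested protein-coding genes within 2 Mb of KIF1A had log2 fold changes from -0.34 to 0.05 in K562/SSedit-2, with 0 called higher and 4 lower at 10% FDR, and from -0.66 to 1.18 in K/VP.5, with 8 called higher and 4 lower. The part of position in the result was not tested. No exon base of KIF1A is shared with another annotated gene.

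KIF5A, the neuronal heavy chain of conventional kinesin, also rose in both lines, by less than 2-fold. It was 13.0 to 16.0 CPM in K562, 22.5 to 26.2 CPM in K/VP.5 and 21.8 to 24.0 CPM in K562/SSedit-2, so that neither derived line overlapped K562. The log2 fold change was 0.77 (SE 0.088, adjusted p = 1.93e-06) in K/VP.5 and 0.66 (SE 0.088, adjusted p = 0.000165) in K562/SSedit-2, and the derived lines did not differ beyond the spread of replicates (log2 fold change -0.12, SE 0.087, adjusted p = 0.289). KIF5B, the heavy chain found in all tissues, was 243 ± 7.95, 242 ± 7.1 and 255 ± 10.9 CPM (SD, n = 4) in the 3 lines and was called in no comparison. The neuronal KIF5C had 4, 2 and 2 counts summed over the replicates of these lines.

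KIF21B and KIF17 were higher in K/VP.5. KIF21B, a motor of dendrites and immune cells, was 19.1 to 26.7 CPM in K562, 49.6 to 64.8 CPM in K/VP.5 and 24.5 to 34.3 CPM in K562/SSedit-2. K/VP.5 lay above both other lines at every replicate, while K562 and K562/SSedit-2 overlapped. The rise in K/VP.5 was 2.36-fold (log2 fold change 1.24, SE 0.12, adjusted p = 4.05e-07). The log2 fold change of KIF21B in K562/SSedit-2, 0.36 (SE 0.12), passed 10% FDR narrowly with an adjusted p of 0.0859, and lost that call in 8 of 21 alternatives, over which the adjusted p ran from 0.0109 to 0.182. KIF17, which carries cargo into dendrites and cilia, was 0.797, 0.829, 0.538 and 0.656 CPM in K562, 2.87, 2.77, 3.07 and 2.91 CPM in K/VP.5, and 0.67, 0.509, 0.219 and 0.239 CPM in K562/SSedit-2. Here K/VP.5 again stood above both lines, and the others overlapped near the lower end of what could be counted, since 3 counts correspond to 0.0691 to 0.102 CPM. KIF17 rose 4.1-fold in K/VP.5 (log2 fold change 2.03, SE 0.24, adjusted p = 2.93e-06). Its log2 fold change in K562/SSedit-2 was -0.76 (SE 0.29, adjusted p = 0.127), which became -1.1 (adjusted p = 0.0356) without K562/SSedit-2 replicate 1.

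KIFC3 was the transport kinesin that fell most in K/VP.5. It encodes a motor that walks toward microtubule minus ends and is known from epithelial cells. Its levels were 157, 170, 158 and 143 CPM in K562, 58.6, 67.8, 67.4 and 55.8 CPM in K/VP.5, and 182, 155, 168 and 128 CPM in K562/SSedit-2. All K/VP.5 replicates lay below all others, and K562 and K562/SSedit-2 overlapped throughout. The level in K/VP.5 was 2.52-fold lower than in K562 (log2 fold change -1.33, SE 0.1, adjusted p = 1.57e-08), while in K562/SSedit-2 the log2 fold change was 0.01 (SE 0.099, adjusted p = 0.978). The 34 neighbors of KIFC3 within 2 Mb had a median change of 0.10 (log2) in K/VP.5.

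Over the transport class as a whole, 3 of 16 tested members were higher and 0 lower in K562/SSedit-2 than in K562 at 10% FDR (12.6% of all tested genes), namely KIF1A, KIF5A and KIF21B. At an unadjusted p under 0.05, 4 of the 16 passed (22.7% of all tested genes). Without K562 replicate 1, KIFC2 at -0.32 and KIF1C at -0.17 were also called, which makes 3 higher and 2 lower (19.5% of all genes). KIFC2 shares 17.8% of its exon bases with FOXH1 on the opposite strand, which stood at 1.92 CPM in K562 and 1.08 CPM in K562/SSedit-2 (log2 difference -0.83 with all samples), and its part in the result was not tested. In K/VP.5 6 were higher and 4 lower (52.3% of all tested genes), or 5 and 4 without that replicate (52.4%). The median log2 fold change of the class was 0.00 in K562/SSedit-2 and 0.07 in K/VP.5, against -0.013 and 0.007 over all tested genes, and the median size of the change, without its sign, was 0.0733 and 0.195 against 0.164 and 0.33 over all tested genes.

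**Figure D2:**
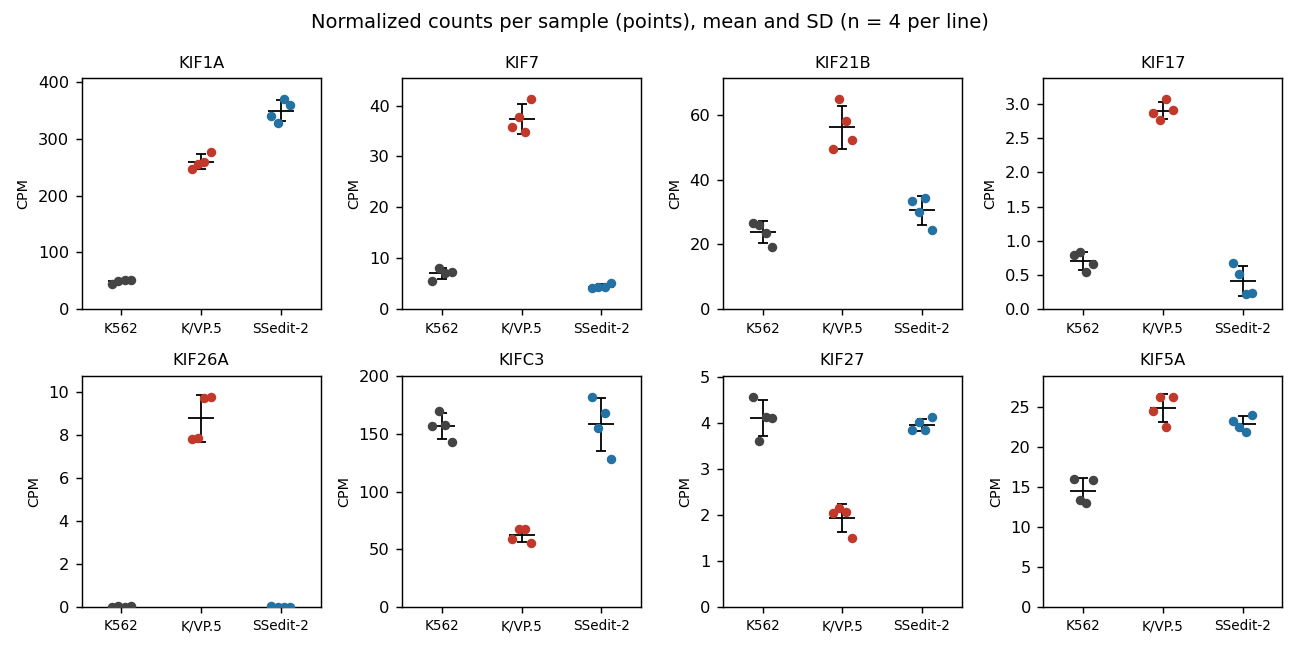
Normalized counts (y axis, CPM from 0) of 8 kinesins in each replicate (points) of the 3 lines, with mean and SD (n = 4). KIF1A and KIF5A are higher in both derived lines, KIF7, KIF21B, KIF17 and KIF26A are higher in K/VP.5, and KIFC3 and KIF27 are lower in K/VP.5.

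Of the 4 tested kinesins of cilia and centrioles, 2 were higher and 1 lower in K/VP.5 at 10% FDR against K562 (52.3% of all tested genes), and in K562/SSedit-2 0 were higher and 1 lower (12.6%). Without K562 replicate 1, of the same 4 members 3 were called higher and 1 lower in K/VP.5 (52.4% of all genes) and 1 higher and 1 lower in K562/SSedit-2 (19.5%). KIF7 (ENSG00000166813, chr15:89608789-89663086, minus strand) works at the cilium tip, where it regulates Hedgehog signaling. It was 5.58, 7.99, 7.16 and 7.29 CPM in K562, 35.8, 37.7, 34.7 and 41.2 CPM in K/VP.5, and 4.07, 4.34, 4.28 and 5.07 CPM in K562/SSedit-2. The lines did not overlap, and here K562/SSedit-2 was lowest. KIF7 rose 5.32-fold in K/VP.5 (log2 fold change 2.41, SE 0.11, adjusted p = 2.7e-11) and fell by 0.66 on the log2 scale in K562/SSedit-2 (SE 0.12, adjusted p = 0.00184). Of the exon bases of KIF7, 10.8% are shared with TICRR on the opposite strand, which was at 79.1 CPM in K562 and had a log2 fold change of 0.18 in K/VP.5 but of -0.09 in K562/SSedit-2. Its part in the result was not tested, and the strand setting of the counting is not given in the sources used here.

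KIF27, a relative of KIF7 that acts in motile cilia, was lower in K/VP.5. It was 3.61 to 4.56 CPM in K562, 1.49 to 2.15 CPM in K/VP.5 and 3.85 to 4.12 CPM in K562/SSedit-2, with all K/VP.5 replicates below the others. KIF27 shares 10.7% of its exon bases with ENSG00000226877 and ENSG00000231616 on the opposite strand, which were at 0.0195 and 0.17 CPM in K562 and at 0.0139 and 0.0491 CPM in K/VP.5. The log2 fold change was -1.07 (SE 0.14, adjusted p = 8.15e-06) in K/VP.5 and -0.05 (SE 0.13, adjusted p = 0.877) in K562/SSedit-2. Of the 8 tested neighbors of KIF27 within 2 Mb, 6 were also lower in K/VP.5 at 10% FDR, with a median of -0.56. KIF9, another kinesin of motile cilia, was 11.3 ± 0.23 CPM (SD, n = 4) in K562 and 15.1 ± 1.23 CPM in K/VP.5 (log2 fold change 0.42, SE 0.088, adjusted p = 0.000806). KIF9 shares 17.8% of its exon bases with other genes, and KLHL18, which overlaps it, had a log2 fold change of 0.27 in the same comparison. KIF24, which holds back cilium formation at the mother centriole, was 11.7 ± 3.18 CPM (SD, n = 4) in K562, with 16.5 CPM in replicate 1, and was called in no comparison with all samples. Without K562 replicate 1 it was called in K562/SSedit-2 (log2 fold change 0.29, adjusted p = 0.0412) and in K/VP.5.

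KIF26A differed most between lines. It belongs to a branch of the family that binds microtubules without walking. Its counts were 0, 1, 0 and 1 in the K562 replicates, 312, 295, 335 and 288 in K/VP.5, while K562/SSedit-2 had 1, 0, 0 and 0. K/VP.5 alone thus gave a level that could be measured, 8.78 ± 1.1 CPM (SD, n = 4). With 1230 counts summed over K/VP.5 and 2 over K562, the ratio of the normalized levels was 686, with an exact 95% interval for counting error of 190 to 5670. KIF26A passed the filter on low counts only through K/VP.5, where it is high, so its call at the fold change of 2 is a description and no test is given. Among the 43 tested genes within 2 Mb of KIF26A, the highest log2 fold change in K/VP.5 was 1.97 and the median 0.23. KIF26B, its closest relative, was 1.92 ± 0.0849 CPM in K562 and 1.52 ± 0.23 CPM in K/VP.5 (log2 fold change -0.34, SE 0.17, adjusted p = 0.123). Against K/VP.5, KIF26B was 0.38 higher in K562/SSedit-2 (log2, SE 0.17, adjusted p = 0.0865), a call that was lost in 9 of 21 alternatives (adjusted p 0.0161 to 0.247). KIF2A, a microtubule depolymerase of spindles and neurites, was 132 ± 15.7, 113 ± 9.9 and 146 ± 15.7 CPM (SD, n = 4) in the 3 lines. Its exons share 21.3% of their bases with other genes. Of the 3 tested members in this remaining class, 0 were called in K562/SSedit-2 against K562 at 10% FDR (12.6% of all tested genes), or 1 (KIF2A, higher) without K562 replicate 1 (19.5%). In K/VP.5 1 was higher, which is KIF26A, and 1 lower (52.3%), or 1 and 0 without that replicate (52.4%).

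The mitotic kinesins differed by small folds between K562 and K562/SSedit-2. Of 13 tested members, 0 were called at 10% FDR by edgeR (12.6% of all tested genes) or limma voom (12.7%) and 1 by DESeq2 (16.8% of the genes it gave an adjusted p). At an unadjusted p under 0.05 by edgeR 2 passed (22.7%). All 13 lay within 1.5-fold of K562, as did 90.7% of all tested genes, and the largest fold was 1.13. The highest log2 fold change was 0.17 for KIF4B (SE 0.17), whose counts were 0.824 to 1.38% of those of KIF4A. KIF4B is a retrocopy of KIF4A, so reads of the latter could be counted there. The lowest was -0.16 for KIF18B (SE 0.06, adjusted p = 0.124), a motor that shortens astral microtubules. Without K562 replicate 1, 4 mitotic kinesins passed 10% FDR (19.5% of all genes): KIF18B at -0.16, KIF11 at 0.17, KIF20B at 0.21 and KIF23 at 0.24.

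In K/VP.5, 4 mitotic kinesins were higher and 3 lower than in K562 at 10% FDR, or 7 of 13, close to the 52.3% of all tested genes (3 and 3 without K562 replicate 1, where the share was 52.4%). Of the 13, 0 passed the fold change of 2 by edgeR (15.6% of all tested genes), DESeq2 (15.6%) or limma voom (15.5%), nor at an unadjusted p under 0.05 (15.6%). The same held in K562/SSedit-2 against K/VP.5, where 4 were higher and 3 lower at 10% FDR (54.0% of all tested genes) and the share of all genes past the fold change of 2 was 15.8% by edgeR and DESeq2 and 16.0% by limma voom. The largest fall in K/VP.5 was that of KIF20B (ENSG00000138182), a kinesin of late cytokinesis. KIF20B was 100, 82.4, 91.7 and 93.0 CPM in K562, 56.2, 56.2, 54.9 and 49.7 CPM in K/VP.5, and 103, 97.9, 98.0 and 113 CPM in K562/SSedit-2. KIF11 (ENSG00000138160), also known as Eg5, slides spindle microtubules apart to form a bipolar spindle and is the target of several experimental antimitotic drugs. KIF11 was 142, 112, 117 and 116 CPM in K562, 85.0, 81.7, 83.1 and 80.1 CPM in K/VP.5, and 128, 125, 124 and 138 CPM in K562/SSedit-2. For both genes all K/VP.5 replicates lay below every replicate of the other lines, and the other lines overlapped. The log2 fold change in K/VP.5 was -0.76 (SE 0.074, adjusted p = 3.36e-07) for KIF20B and -0.56 (SE 0.075, adjusted p = 1.09e-05) for KIF11. In K562/SSedit-2 against K562 the values were 0.17 (SE 0.073, adjusted p = 0.186) and 0.08 (SE 0.074, adjusted p = 0.574). KIF15, which can assist KIF11 in keeping the spindle bipolar, was 45.6 ± 3.45 CPM (SD, n = 4) in K562 and 52.1 ± 2.04 CPM in K/VP.5 (log2 fold change 0.19, SE 0.079, adjusted p = 0.0596), a call lost in 8 of 21 alternatives (adjusted p 0.0177 to 0.214).

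Among the mitotic kinesins that rose in K/VP.5, KIF2C changed most. KIF2C, a depolymerase of microtubules at centromeres, was 153 to 190 CPM in K562 and 203 to 213 CPM in K/VP.5, without overlap (log2 fold change 0.32, SE 0.071, adjusted p = 0.00145). KIF18B was 111 to 113 CPM in K562 and 121 to 140 CPM in K/VP.5 (log2 fold change 0.23, SE 0.06, adjusted p = 0.00547), and in K562/SSedit-2, at 96.1 to 106 CPM, it lay below both other lines. KIF4A, a chromokinesin of chromosome arms and the central spindle, was 138 ± 11.7, 138 ± 3.69 and 143 ± 9.0 CPM in the 3 lines and was called in no comparison. KIFC1, which clusters centrosomes, was 102 ± 10.1, 102 ± 0.835 and 92.0 ± 8.55 CPM (SD, n = 4) in these lines and was not called either.

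**Figure D3:**
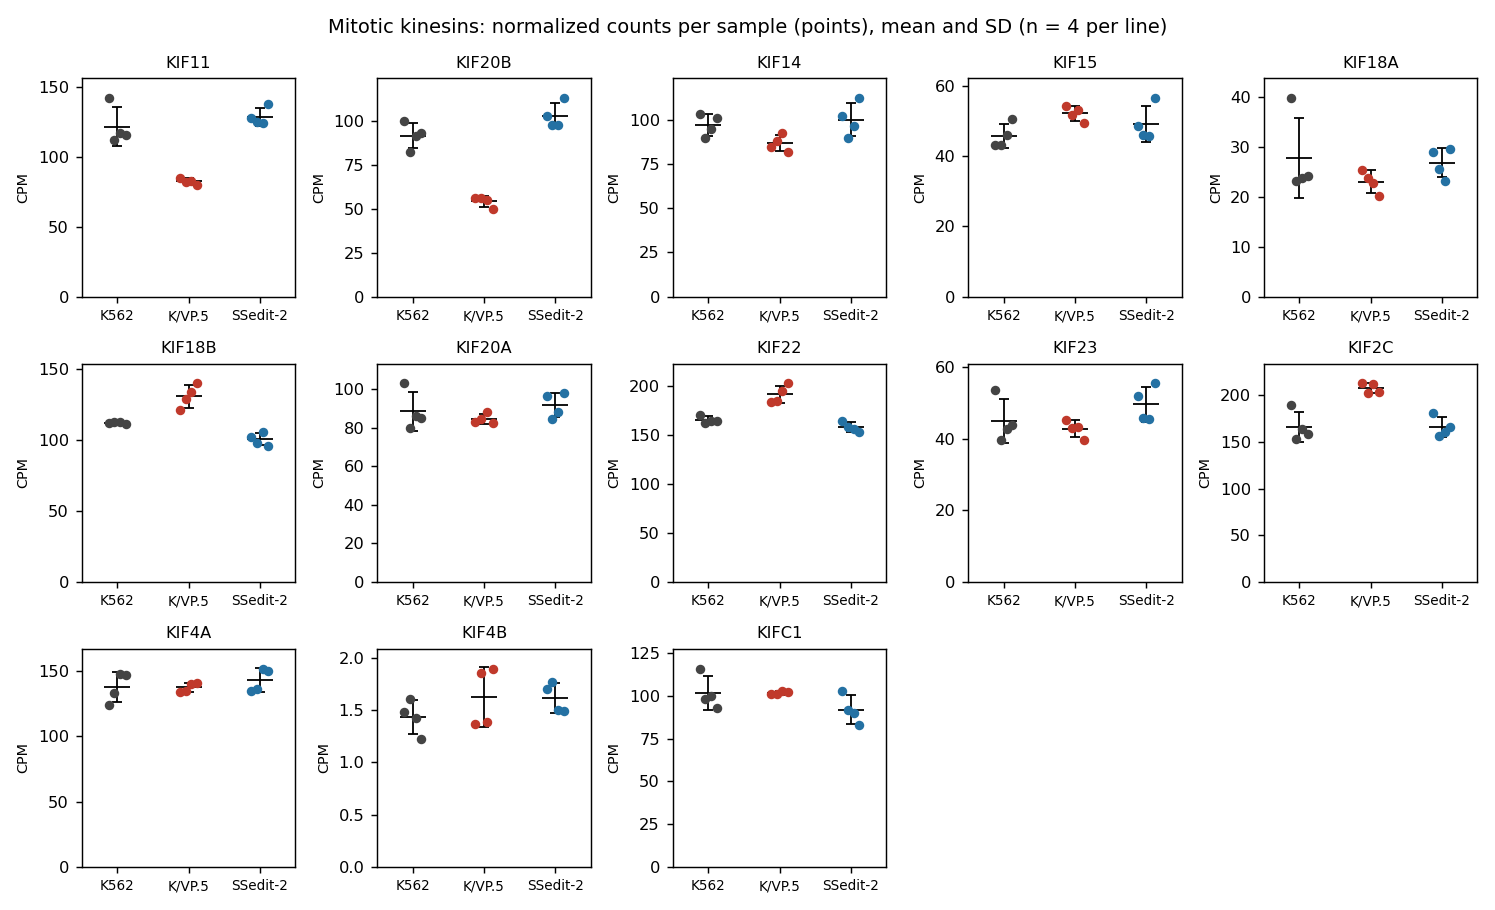
Normalized counts (y axis, CPM from 0) of the 13 tested mitotic kinesins in each replicate (points) of the 3 lines, with mean and SD (n = 4). KIF11 and KIF20B are lower in K/VP.5 than in both other lines, and the first K562 point of KIF18A, at 39.7 CPM, stands above the other K562 points.

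KIF20B and KIF11 lie 2.8 Mb apart on chromosome 10, at chr10:89701590-89774939 and chr10:92574105-92655395 (GRCh38, GENCODE 44), and their neighbors moved with them. Of the 22 tested protein-coding genes within 2 Mb of KIF11, 22 had a negative log2 fold change in K/VP.5, 20 of them called at 10% FDR, with a median of -0.61. Of the 10 within 2 Mb of KIF20B, 9 were called lower, with a median of -0.81. These windows overlap and both lie beyond 85 Mb, so their counts and those that follow share genes. From 85 Mb to the end of the chromosome, 180 of 229 genes were called lower in K/VP.5 (78.6%), against 86 of 256 before that point (33.6%) and 26.1% of all tested genes. The median log2 fold change beyond 85 Mb was -0.59, with quartiles of -0.81 and -0.36, and before it -0.04. In K562/SSedit-2 the medians were 0.00 and 0.01. KIF5B, on the short arm of the same chromosome, had a log2 fold change of -0.01 in K/VP.5. The window of 2 Mb and the border at 85 Mb were chosen after the values were seen. DNA copy number was not analysed here, and the part of chromosomal position in the result was not tested.

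**Figure D4:**
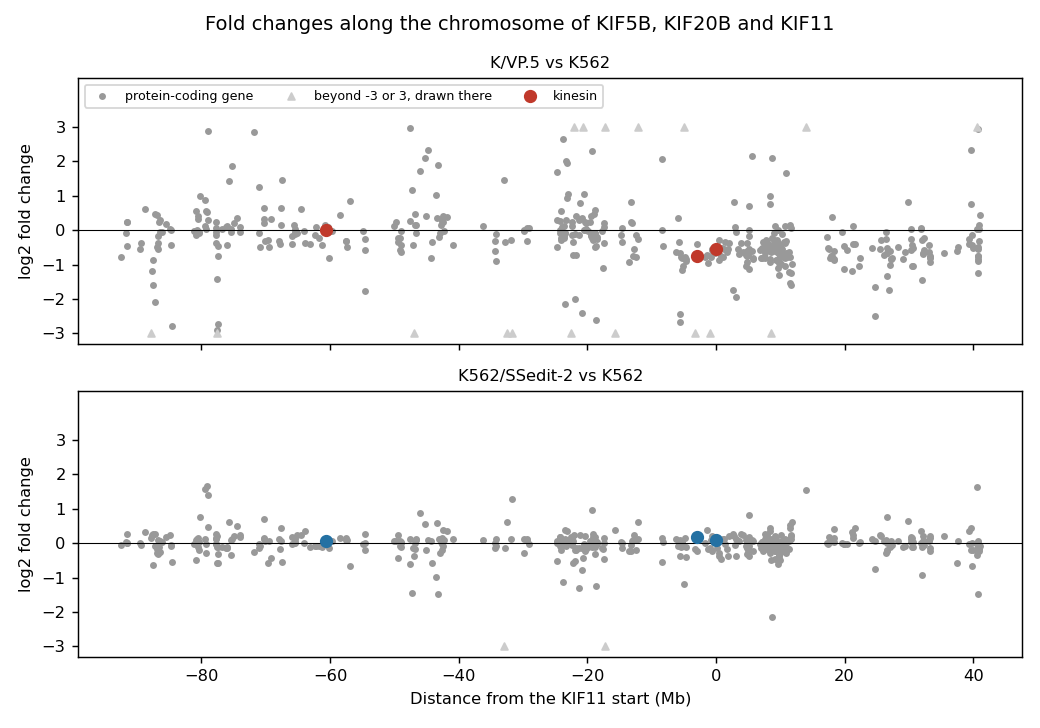
Log2 fold change (y axis) of the tested protein-coding genes of the chromosome that holds KIF5B, KIF20B and KIF11, by distance from the KIF11 start (x axis, Mb), in K/VP.5 (top) and K562/SSedit-2 (bottom) against K562. Large points are the kinesins, triangles are genes below -3 or above 3, drawn at those values, and genes around KIF11 and to its right lie mostly below 0 in K/VP.5 only.

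Scaled to the length of merged exons (RPKM, CPM per kilobase), KIF2C and KIF5B were the highest kinesins in all lines, an order that depends on the length used. KIF2C was at 45.6 ± 4.46, 57.0 ± 1.41 and 45.5 ± 2.88 RPKM (SD, n = 4) in the 3 lines, and KIF5B at 41.5 ± 1.35, 41.2 ± 1.21 and 43.5 ± 1.86 RPKM. In K562 and K562/SSedit-2 they differed by less than the SD of KIF2C, and in K/VP.5 by more. The sum over the mitotic kinesins was 251 ± 15.7, 254 ± 3.63 and 250 ± 9.4 RPKM in the 3 lines, differences smaller than the SD in K562. The sum over the transport kinesins was 123 ± 2.03, 131 ± 1.58 and 141 ± 4.2 RPKM, and without KIF1A it was 120 ± 1.87, 116 ± 1.73 and 122 ± 3.44 RPKM. KIF1A made up 2.23%, 11.1% and 13.8% of the transport sum, and moved from place 23 among the kinesins in K562 to place 10 in both derived lines. KIFC3 was at places 10, 17 and 11. With the longest coding transcript as the length, KIF22, a chromokinesin, was the highest in each line, at 66.4 ± 1.46, 76.9 ± 3.73 and 63.3 ± 2.03 RPKM, from places 6, 6 and 7 by merged exons. KIFC3 was then at place 3 in K562 and K562/SSedit-2, since much of its merged exon length lies outside that transcript, and KIF1A was at places 21, 7 and 6. By that length the transport sum was 170 ± 2.46, 174 ± 2.73 and 205 ± 6.83 RPKM in the 3 lines. Without KIF1A it was 164 ± 2.19, 145 ± 2.84 and 167 ± 5.85 RPKM. The share of KIF1A was then 3.16%, 16.4% and 18.7%.

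**Figure D5:**
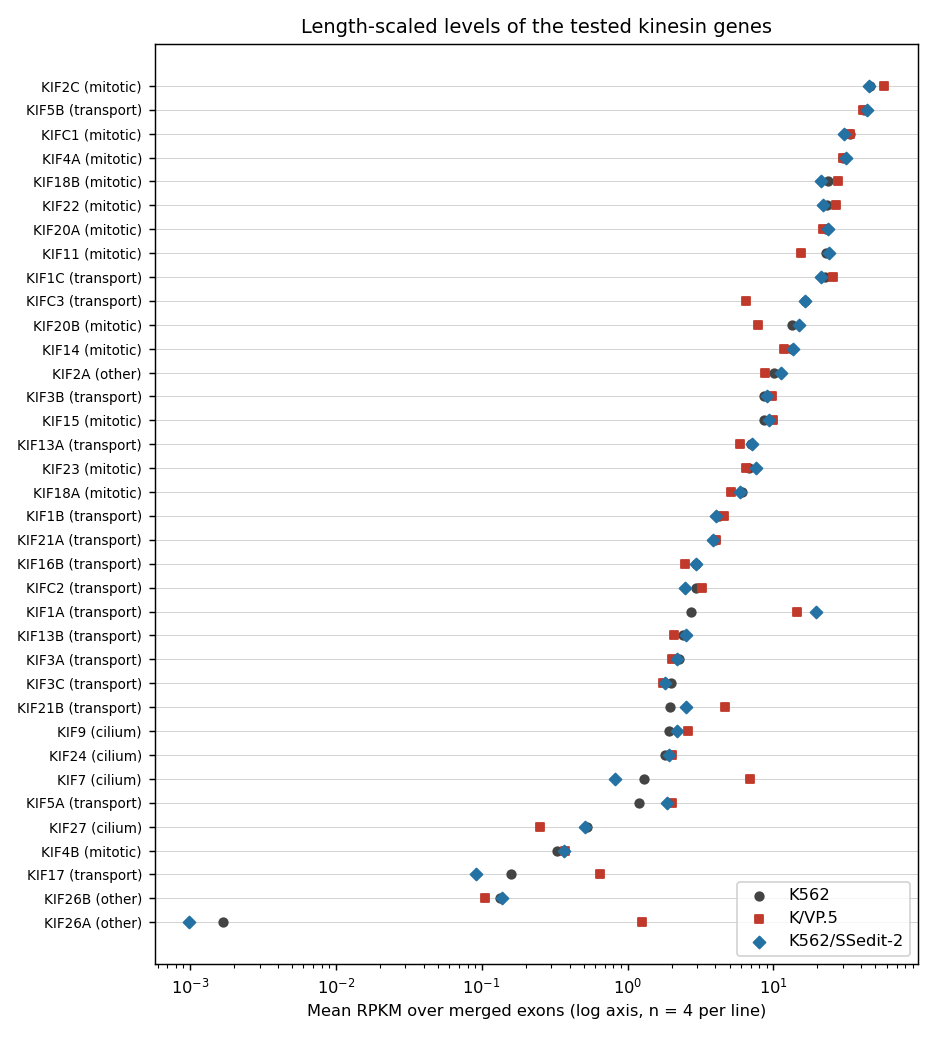
Mean RPKM over merged exons (x axis, log scale, n = 4) of the tested kinesins in each line, ordered by the level in K562, with the class of each kinesin in parentheses. Most kinesins have the 3 lines close together, whereas KIF1A, KIF7, KIF21B, KIF17, KIFC3 and KIF27 do not, and the KIF26A points of K562 and K562/SSedit-2 rest on 2 and 1 counts.

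Of the partners of the kinesins, the list of light chains, cargo adaptors and regulators of transport motors had 21 tested members. In K/VP.5 7 were higher and 9 lower than in K562 at 10% FDR (52.3% of all tested genes), or 6 and 10 without K562 replicate 1 (52.4%). In K562/SSedit-2 1 was higher and 1 lower (12.6% of all tested genes). That count rose to 2 higher and 5 lower without K562 replicate 1, where 19.5% of all genes were called, and came to 2 higher and 1 lower in the replicate block fit (16.4%). MAP7, a microtubule-bound protein that recruits and activates kinesin-1 motors, was lower in both derived lines, at 17.2 ± 0.761, 3.87 ± 0.383 and 7.64 ± 0.619 CPM (SD, n = 4) in the 3 lines. Its log2 fold change was -2.15 (SE 0.1, adjusted p = 4.19e-11) in K/VP.5 and -1.17 (SE 0.096, adjusted p = 8.48e-07) in K562/SSedit-2, with no overlap between lines. KIFAP3, the cargo-binding subunit of the KIF3A and KIF3B motor, was the adaptor that rose in K562/SSedit-2, from 17.7 ± 2.51 to 24.1 ± 1.4 CPM (log2 fold change 0.45, SE 0.096, adjusted p = 0.00884), and was lower in K/VP.5 at 14.5 ± 0.934 CPM. KLC3, a light chain, reached 1.2 ± 0.175 CPM in K/VP.5 from 0.604 ± 0.284 CPM in K562 (log2 fold change 1.0, SE 0.26, adjusted p = 0.0051), which is at the cutoff, and by DESeq2 only MAP7 of this list passed it in K/VP.5.

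Of 16 mitotic regulators and partners, 5 were higher and 2 lower in K/VP.5 at 10% FDR (52.3% of all tested genes), or 7 and 1 without K562 replicate 1 (52.4%). In K562/SSedit-2 0 were higher and 1 lower (12.6% of all tested genes), or 2 and 1 without that replicate (19.5%). The member called lower with all samples was AURKB, the kinase of the chromosomal passenger complex, at 47.8 ± 0.929 CPM (SD, n = 4) in K562 and 42.2 ± 0.964 CPM (log2 fold change -0.18, SE 0.061, adjusted p = 0.0882), chosen for mention after its value was seen. That call was lost in 15 of 20 alternatives (adjusted p 0.0575 to 0.242). The only members past the fold change of 2 were kinesins in protein sequence that carry other symbols and so were not taken by the rule. CENPE, the kinetochore motor that brings chromosomes to the spindle equator, was 59.4 to 82.9 CPM in K562, 29.9 to 32.1 CPM in K/VP.5 and 70.1 to 91.5 CPM in K562/SSedit-2. STARD9, a mitotic kinesin of the centrosome, was 8.42 to 11.7 CPM in K562, 27.0 to 33.0 CPM in K/VP.5 and 9.12 to 10.9 CPM in K562/SSedit-2. In both, K/VP.5 stood apart from overlapping K562 and K562/SSedit-2 replicates, below for CENPE (log2 fold change -1.25, SE 0.1, adjusted p = 4.15e-08) and above for STARD9 (log2 fold change 1.58, SE 0.11, adjusted p = 7.71e-09).

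Of 27 genes of dynein and dynactin, the machinery that moves the opposite way along microtubules, 24 were tested. In K/VP.5 8 were higher and 7 lower than in K562 at 10% FDR (52.3% of all tested genes), or 8 and 6 without K562 replicate 1 (52.4%). In K562/SSedit-2 1 was higher and 1 lower (12.6% of all tested genes). That count rose to 5 higher and 4 lower without K562 replicate 1, where 19.5% of all genes were called, and to 3 higher and 2 lower in the replicate block fit (16.4%). With all samples, the only member past the fold change of 2 was DYNLT3, a dynein light chain, with 6 counts summed over K562, 514 over K/VP.5 and 0 over K562/SSedit-2, so that it was measured at 3.6 ± 0.338 CPM in K/VP.5 and near the limit of counting elsewhere. It passed the filter on low counts only through K/VP.5, and no test is given.

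The 6 untested kinesins had at most 12 counts in any sample. KIF2B and KIF12 had 0 counts in all 12 samples, which allows up to 0.102 CPM in the shallowest of them. Summed over replicates, KIF6 had 0, 2 and 1 counts and KIF25 had 3, 2 and 14 counts in the 3 lines. KIF19, which sets the length of motile cilia, had 8, 38 and 18 counts. With all samples these depths were under the filter on low counts, and no comparison is drawn from them. Without K562 replicate 1 KIF19 passed the filter, through the line where it is high, so its values are a description and no test is given. The limits cover counting error only.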

How the data were processed

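Total RNA of 3 lines, 4 replicates each, was sequenced in 150-bp paired ends. Counts per gene are whole numbers deposited by the authors as featureCounts gave them, without normalization, after mapping to GRCh38 (HISAT 2.1.0). The annotation release and strand setting are not given in the sources used here. Symbols, positions and exon lengths were taken from GENCODE 44.

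Genes were filtered with filterByExpr (minimum count 10), scaled by TMM and compared with edgeR 4.0.16 (R 4.3.3) by its quasi-likelihood test, all 12 samples sharing a fit, and p-values were adjusted over 18626 genes (Benjamini-Hochberg). The SE is the log2 fold change over the square root of F. RPKM values were computed from TMM-scaled CPM and merged exon length. Promoter windows are those of RefSeq (GRCh38.p14). The ratio interval for KIF26A is the exact conditional binomial one.

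Replicate numbers come from the sample labels. Deviations of same-numbered K562 and K562/SSedit-2 samples from their line means correlated across genes (r 0.14 to 0.29), so these samples were treated as paired in an alternative fit with the number as a block. Other alternatives were RLE and upper-quartile scaling, DESeq2 1.42.0, limma 3.58.1 voom, other filters, fits of only the lines compared, each replicate left out, an adjusted p under 0.05 and a 1.5-fold cutoff. On simulated counts of 18626 genes for K562/SSedit-2 against K562, 18183 genes were tested. The 200 planted changes (log2 1.5) were recovered at 100%, with 5 false calls. Recovery of smaller changes was not tested. No replicates were duplicates of each other.

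The members and gene lists were chosen with earlier results of these data known. Kinesins were named if past the fold change of 2 at 10% FDR with at least 1 CPM in a line, if among the 3 highest per length in the mitotic or transport class, or if highest or lowest in log2 fold change within their class. Of the partner lists, members past the same threshold were named, at most 4 per list. KIF5A, KIF9, KIF11, KIF15, KIF18A, KIF22, KIF23, KIF24, KIFC2, KIFAP3, AURKB and the untested kinesins were added after their values were seen.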

Additional observations from a re-analysis of the deposited data

Results flagged for a closer look

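Over the 108 groups of 4 replicates (36 kinesins in 3 lines), a single replicate lay far from the other replicates of its line in 7, or 6.48%, and chance gives about 1 in 20. K562 replicate 1 accounts for 4 of them. KIF11 was 142 CPM there against 112 to 117 CPM in the other K562 replicates, KIF18A was 39.7 CPM against 23.2 to 24.1 CPM, and KIF24 was 16.5 CPM against 9.53 to 10.5 CPM. KIF1C, a vesicle motor, was 155 CPM there against 201 to 210 CPM. K/VP.5 replicate 4 stood apart for KIF27, at 1.49 CPM against 2.05 to 2.15 CPM, and for KIFC2, at 17.6 CPM against 13.1 to 13.6 CPM. KIF26A was 0.0279 CPM in K562/SSedit-2 replicate 1 and 0 in the others, a difference of 1 count.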

How the results depend on the processing

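No called value changed its sign under any alternative run. Leaving out 1 replicate at a time, 3 to 12 kinesins passed 10% FDR in K562/SSedit-2 against K562 (4 in all samples), the 12 without K562 replicate 1, and 1 to 2 passed the fold change of 2, the second being KIF17 without K562/SSedit-2 replicate 1. In K/VP.5 against K562 the ranges were 18 to 24 and 6 to 8, and in K562/SSedit-2 against K/VP.5 20 to 25 and 4 to 5. With a cutoff of 1.5-fold, 3 kinesins were called in K562/SSedit-2 against K562 and 8 in K562/SSedit-2 against K/VP.5. Without a filter on low counts, KIF5C entered the transport class and the scaling was recomputed. The median log2 fold change of the transport kinesins in K/VP.5 was then -0.01, and these parts were not separated. With the replicate block, 1 kinesin passed the fold change of 2 and 4 passed 10% FDR in K562/SSedit-2 against K562. No count over all kinesins moved by over 1.5 times with the block, though counts within the small classes did. Among the dynein and dynactin genes the block raised 2 calls to 5 in K562/SSedit-2 against K562. In K/VP.5 against K562 and in K562/SSedit-2 against K/VP.5, same-numbered samples correlated less on average (r 0.00 to 0.27 and -0.09 to 0.16). The mean r was 0.11 and 0.03, against 0.2 for K562/SSedit-2 and K562. The labels do not say whether any of these samples are paired. In K562/SSedit-2 against K/VP.5 the block took away the call of KIF26B and added that of KIFC1. With the longest coding transcript as the length, KIF22 was at place 1 and KIF2C at place 2 in each line, KIF5B at places 5, 4 and 4, KIFC3 at places 3, 10 and 3, and KIF1A at places 21, 7 and 6, each in the order K562, K/VP.5, K562/SSedit-2. Of the tests of single kinesins, 52 lost and 24 gained a call with a replicate left out, and 24 lost and 14 gained one under other alternatives, of 1296 and 971 run. Depth limits KIF17, KIF26A in K562, DYNLT3 and the untested kinesins.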
